A study of Mus musculus with 54 samples.

Results

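Dividing epithelial cells of the mouse small intestine were examined in the single-cell RNA data of a study of miR-375, a microRNA, in the intestinal crypt. A cell was taken as cycling when it held at least 3 unique molecular identifiers (UMIs, counted RNA molecules) of Mki67 and Top2a together, when Epcam, Krt8 and Krt18 made up at least 0.2% of its UMIs, and when Lyz1 and the Defa defensins made up under 10%. This rule found 1510 cycling cells among 5597 epithelial cells and 9156 cells that passed the filters, which asked for 500 detected genes or more, 1000 UMIs or more and a mitochondrial share below 25%. The 17836 deposited barcodes came from 4 samples of cells separated from the small intestine of C57BL6/2J mice aged 12 months and run on the 10X Chromium platform. There were 2 wild-type and 2 miR-375 knockout samples, and each genotype had 1 sample in set 1 and 1 in set 2. The labels name no other allele or treatment, and the knockout allele, the number of mice behind a sample and what separates the sets could not be learned from the labels. P-values therefore measure only the spread between these samples, which may be technical. Both genotypes in both sets held Y-linked Ddx3y (29.1, 34.4, 29.8 and 35 CPM in wild-type sets 1 and 2 and knockout sets 1 and 2) and at most 0.429 CPM of Xist, the transcript that silences an X chromosome in females, where CPM is counts per 1000000 UMIs summed over the cycling cells of a sample.

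The intestinal epithelium is replaced every few days from crypts. Stem cells marked by Lgr5 divide at the crypt base, and their daughters divide several more times as transit-amplifying cells before they become absorptive enterocytes or secretory goblet, Paneth, enteroendocrine and tuft cells. A dividing cell copies its DNA in S phase with the help of the Mcm helicase, Pcna and the enzymes of nucleotide synthesis, and then builds the machinery of chromosome separation (cyclin B, Cdk1, the Aurora and Plk1 kinases and the kinesins) in G2 and M phase. Mki67 coats mitotic chromosomes and Top2a untangles sister DNA, so both mark cells late in that cycle most strongly. MicroRNA miR-375 is best known from pancreatic islet and enteroendocrine cells, and the title of the study ties it to proliferation and regeneration of the crypt.

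The Mir375 gene lies at chr1:74900658-74900721 on the minus strand (GRCm38). Its RefSeq hairpin is shown because it is the RNA the knockout removes, and no row of the matrices is named Mir375, so its loss could not be checked in these cells.
Mir375 hairpin: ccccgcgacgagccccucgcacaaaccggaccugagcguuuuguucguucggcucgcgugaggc

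Several measurements bear on which cells the rule found. The cycling cells numbered 235 and 498 in wild-type sets 1 and 2 and 246 and 531 in the knockout. All paired values below follow that order, set 1 and then set 2. Their median depth was 20293 and 34558 UMIs in wild type and 20281 and 25269 in the knockout, so that the deepest sample was wild-type set 2. Epithelial cells with no UMI of Mki67 or Top2a, called other epithelial cells here, were shallower in every sample, at medians of 15482, 22210.5, 14322 and 15249.5 UMIs.

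The keratin part of the rule removed far more dividing cells from set 1 than from set 2. Cells that passed every other criterion but held under 0.2% of Epcam, Krt8 and Krt18 numbered 107 and 149 in wild-type and knockout set 1 and 20 and 7 in set 2. At least 1 Epcam UMI was found in 102 and 146 of the set 1 cells and in 7 and 4 of the set 2 cells. The results that follow were therefore also computed with a threshold of 0.05%, chosen after these counts were seen. Paneth cell RNA was counted in the cycling cells of every sample. Defa24, a Paneth cell defensin, stood at 2910.5, 1296, 2505 and 1826 CPM in cycling cells and at 2790.2, 982, 2446 and 1390.2 CPM in other epithelial cells. The classes were close in set 1, and cycling cells were higher in set 2. The median share of Lyz1 and Defa in cycling cells was 0.327% and 0.0419% in wild type and 0.261% and 0.109% in the knockout. Cycling cells with 5% to 10% numbered 1 and 7 in wild type and 2 and 8 in the knockout. Whether this RNA came from other cells was not tested. The matrices shared 1 barcode in set 1 and 12 in set 2, and no cycling cell was among them.

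At the edge of the rule the cells were mixed. Ube2c, a ubiquitin-conjugating enzyme of mitotic exit that the rule did not use, reached 139, 82.3, 212 and 77.6 CPM in cells with exactly 3 UMIs of Mki67 and Top2a. In cells just outside, with exactly 2 UMIs, it reached 181, 59, 132 and 106 CPM. The 2 ranges overlap, and both lie well above the 20.5, 14.3, 17 and 13.1 CPM of cells with none. Cells with 1 or 2 UMIs (895 in all) were kept out of the other class for that reason.

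The genes that marked the chosen cells most strongly were those of late cell cycle, which a rule on Mki67 and Top2a favors, and S-phase genes were higher as well. These levels describe the cells the rule picked and carry no test, because the same cells were chosen by the same kind of measurement. Of the named markers, Cdk1, the kinase that starts mitosis, stood at 131, 152, 138 and 177 CPM in cycling cells against 4.62, 3.54, 3.81 and 4.35 CPM in other epithelial cells. Ube2c stood at 376, 456, 419 and 487 CPM. Epcam, an adhesion protein of all epithelial cells, was at 1476, 2128, 1349.5 and 1919 CPM in cycling and 1390.3, 2048, 1392 and 1753 CPM in other cells, so both classes carried it at like level. The 15 genes with the highest ratio in the least marked sample were, in order, Nusap1, Cdk1, Plk1, Prc1, Pbk, Cenpf, Tpx2, Ube2c, Aurka, Ccna2, Incenp, Racgap1, Smc2, Ccnb1 and Birc5. All of them serve the spindle, the centromere, chromosome condensation, cytokinesis or the cyclin-dependent kinase of mitosis. Nusap1, a spindle microtubule protein, led with 62.1, 76.3, 67.6 and 82.9 CPM against 0.77, 0.669, 1.61 and 0.396 CPM, a log2 ratio of at least 4.71 in every sample.

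The other end of the ratio held products of mature cells. The 8 genes most depleted were Leap2, Rbp2, Ggt1, Anpep, Apoa4, Lct, Apoa1 and Gcg, of which Gcg encodes the hormone precursor of enteroendocrine L cells and the rest are genes of mature enterocytes. Apoa1, an apolipoprotein of absorptive cells, stood at 105, 42.2, 60.1 and 129 CPM in cycling cells and at 3958, 3367, 2572 and 4983 CPM in others. Enteroendocrine Gcg stood at 2.68, 1.08, 2.61 and 0.859 CPM against 138, 368, 139 and 128 CPM. Across all genes tested, 829 of 11465 (7.23%) were at least 2-fold higher in cycling cells in all 4 samples and 473 (4.13%) at least 2-fold lower. In the chosen lists this applied to 54 of 58 S-phase genes and 62 of 65 G2/M genes, to 13 of 25 genes of ribosome and nucleotide synthesis, and to 10 stem cell and Wnt target genes. It was lower by that much for 23 of the absorptive enterocyte genes.

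**Figure D1:**
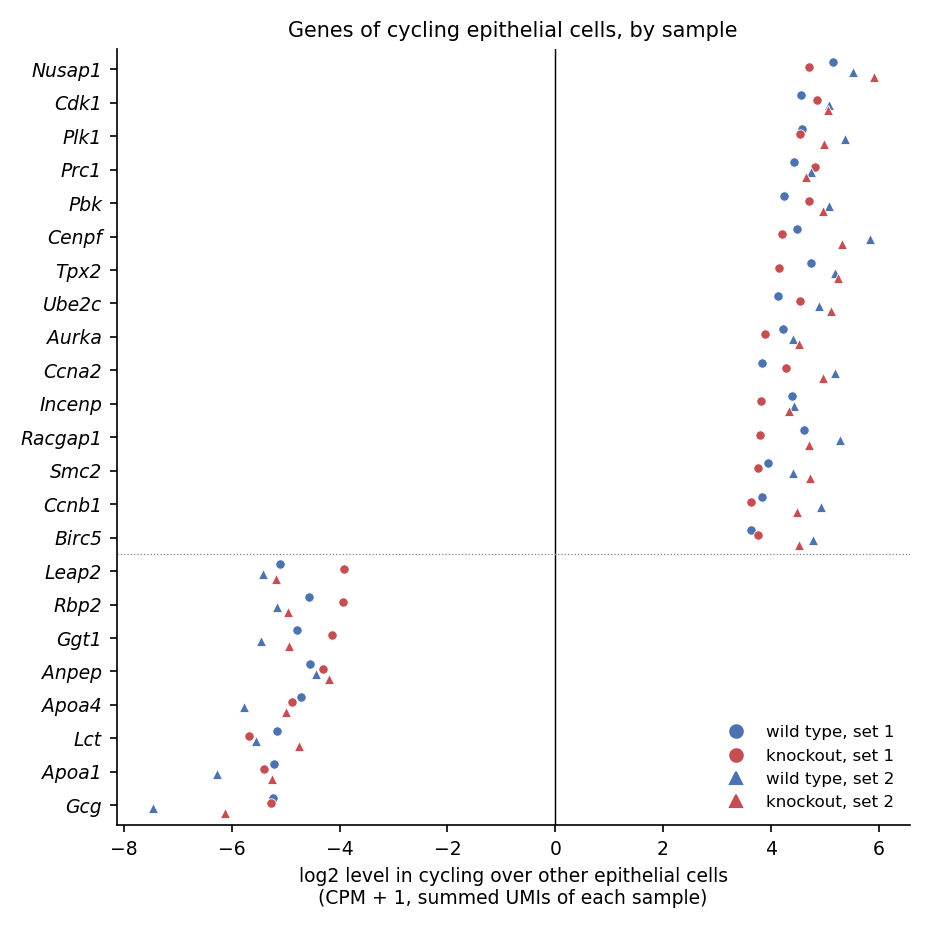
Log2 ratio of CPM (plus 1) in cycling over other epithelial cells, 1 point per sample (circles set 1, triangles set 2; blue wild type, red knockout), for the 15 highest and the 8 lowest genes by the rule. Nusap1 heads the upper genes with at least 4.71 in every sample, and the points of the 4 samples lie together for most upper genes.

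Genes of G2 and M phase often carry a CHR element, spelled TTTGAA here, next to CCAAT boxes, while S-phase genes are better known for E2F sites, searched here as GGCGCG. Each was looked for on both strands of RefSeq promoters (GRCm38.p6) spanning 250 bases before to 50 after the start, as a description of letters and not of bound sites. CHR letters were present in 41 of 61 promoters of G2/M genes (67.2%), in 6 of 49 of S-phase genes (12.2%) and in 17.9% of all 32851 promoters. Both CHR and CCAAT letters occurred in 34 promoters of the G2/M genes (55.7%) against 6.95% of all. E2F letters occurred in 29 promoters of the S-phase genes (59.2%), in 24 of the G2/M genes (39.3%) and in 19.2% of all. The promoter table matched 55 of 65 G2/M genes and 43 of 58 S-phase genes.

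The promoters of the first 3 genes of the ratio are printed 5′ to 3′ to show how differently these letters are placed, with CHR and CCAAT letters of either strand in capitals. Nusap1 is at chr2:119618048-119618347 on the plus strand, Cdk1 at chr10:69352863-69353162 on the minus strand and Plk1 at chr7:122159185-122159484 on the plus strand. In Cdk1 the CHR letters begin 70 and 14 bases before the start, and all 3 CCAAT boxes are on the reverse strand (printed as attgg). In Plk1 the CCAAT box begins 13 bases before the start and the CHR letters lie downstream of it. The Nusap1 window holds neither.
Nusap1: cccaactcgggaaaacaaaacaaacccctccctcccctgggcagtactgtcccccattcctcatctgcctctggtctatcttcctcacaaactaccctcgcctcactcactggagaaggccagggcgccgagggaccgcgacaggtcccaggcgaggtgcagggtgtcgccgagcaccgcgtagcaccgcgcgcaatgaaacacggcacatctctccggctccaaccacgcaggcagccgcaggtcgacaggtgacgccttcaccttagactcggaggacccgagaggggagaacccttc
Cdk1: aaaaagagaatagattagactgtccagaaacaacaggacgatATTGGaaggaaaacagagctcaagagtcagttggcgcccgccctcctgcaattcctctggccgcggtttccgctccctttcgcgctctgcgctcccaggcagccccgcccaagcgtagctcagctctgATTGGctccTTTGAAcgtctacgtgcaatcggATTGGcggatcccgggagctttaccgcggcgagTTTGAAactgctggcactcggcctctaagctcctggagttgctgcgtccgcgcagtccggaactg
Plk1: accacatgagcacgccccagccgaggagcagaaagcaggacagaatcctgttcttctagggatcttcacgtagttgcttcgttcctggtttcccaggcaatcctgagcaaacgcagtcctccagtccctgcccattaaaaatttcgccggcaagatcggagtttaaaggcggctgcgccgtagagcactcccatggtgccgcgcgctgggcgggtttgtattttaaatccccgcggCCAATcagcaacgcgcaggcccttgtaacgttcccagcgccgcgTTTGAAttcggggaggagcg

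Most of the cycling cells held more G2 and M than S-phase RNA, and the genotypes overlapped in this balance. The excess itself does not place the cells in a phase. The rule chose them by Mki67 and Top2a, which mark the late cycle most strongly, and the lists differ in abundance. In other epithelial cells of wild type, unthinned, G2/M genes took a mean of 0.0898% of UMIs and S-phase genes 0.0426%. The order was the same in other epithelial cells of the knockout. To set depth aside, each cell was thinned to 5000 UMIs, which left out 7 and 2 cycling cells of wild-type and knockout set 2 and none of set 1. Cells with more G2/M than S-phase UMIs made up 86.8% and 85.5% in wild type and 86.6% and 83.6% in the knockout. The groups overlapped, and the mean difference was -1.1 percentage points (two-sided exact permutation p = 0.667). With 2 samples against 2 an exact permutation test cannot go below p = 0.333. Without thinning, S-phase genes took 0.226% and 0.242% of UMIs in wild type and 0.217% and 0.277% in the knockout. G2/M genes took 0.691% and 0.762% in wild type and 0.726% and 0.799% in the knockout. The G2/M share lay higher in the knockout by 0.0351 percentage points in set 1 and 0.0368 in set 2, while the genotypes overlapped across sets (exact p = 0.667, from a test that does not pair samples by set). The S-phase share differed in sign between the sets (exact p = 1.0).

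Markers of stem, secretory and endocrine cells, which the rule did not use, were found among the dividing cells. Stem cell Lgr5 was seen in 5.11% and 9.04% of wild-type and in 6.5% and 11.7% of knockout cycling cells. The same share among other epithelial cells was 1.43%, 2.88%, 2.37% and 3.97%, and in the T lymphocytes of set 2, which should lack Lgr5, it was 0.363% and 0.253% at median depths of 2870.5 and 2109 UMIs. After thinning to 5000 UMIs, Lgr5 was left in 2.55% and 3.67% of wild-type and 2.44% and 3.97% of knockout cells, which overlap. Olfm4, a second marker of stem cells and early progenitors, separated the sets and not the genotypes, at 8.51% and 4.47% of cycling cells in set 1 and 32.7% and 34.3% in set 2.

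Atoh1, the transcription factor that commits cells to the secretory lineage, was seen in 22.6% and 35.1% of wild-type and 17.9% and 32.8% of knockout cycling cells. After thinning to 5000 UMIs it was left in 11.5% and 14.1% of wild-type and 10.2% and 14% of knockout cycling cells, beside 7.76% and 12.4% of wild-type and 14.2% and 13.5% of knockout other epithelial cells. Its level was 26, 33.8, 25.9 and 35.9 CPM in cycling and 29.5, 34.8, 54.2 and 34.2 CPM in other epithelial cells. In the T lymphocytes of set 2, which were far shallower than the cycling cells, the unthinned Atoh1 share was 0.581% and 0.884%. Tff3, a goblet cell peptide, was seen in 89.8% to 97.6% of cycling cells but also in 76.7% and 80.9% of those T lymphocytes, so that its share does not mark goblet cells. Its level in set 2 was 3647 and 3930 CPM in wild-type and knockout cycling cells and 530 and 779 CPM in the T lymphocytes. How much of it was background RNA was not tested.

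Endocrine commitment, read from Neurog3, was rare among dividing cells and also among other epithelial cells. Neurog3, the factor that starts endocrine differentiation, was left after thinning in 0.426% and 0.407% of wild-type and 1.22% and 1.7% of knockout cycling cells. The groups did not overlap, yet the values rest on 1 to 9 cells a sample, and the exact p of 0.333 is the smallest possible (1.0 after Benjamini-Hochberg adjustment over the 14 markers compared). Endocrine Chga went the other way, at 5.53% and 4.68% of thinned wild-type and 2.85% and 2.84% of thinned knockout cells (exact p = 0.333, adjusted 1.0). Unthinned, the Chga shares were 11.9% and 18.1% in wild type and 13% and 10.7% in the knockout, which overlap and lie higher in the knockout of set 1 (exact p = 0.667). Unthinned, the Neurog3 shares were 1.28% and 1.0% in wild type and 1.63% and 2.45% in the knockout. In other epithelial cells the thinned Neurog3 share was 1.43% and 0.248% in wild type and 1.72% and 1.52% in the knockout. Those groups did not overlap either (exact permutation p = 0.333), so this order was not particular to dividing cells. With 2 samples against 2 no marker could pass.

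The study asks about crypt proliferation, and under the main rule the share of epithelial cells that were cycling did not separate the genotypes. It was 27.2% and 29.1% in wild type (exact 95% binomial intervals, for counting error only, of 24.3% to 30.3% and 27% to 31.4%). In the knockout it was 28.8% and 24.5% (25.8% to 32% and 22.7% to 26.3%). The knockout lay 1.61 percentage points higher in set 1 and 4.67 lower in set 2, so the sets went opposite ways. The group means were 28.2% ± 1.37 (SD, n = 2) in wild type and 26.6% ± 3.07 (SD, n = 2) in the knockout, two-sided exact permutation p = 0.667. With at least 5 UMIs of Mki67 and Top2a the shares were 22.8% and 23.8% in wild type and 22.2% and 21.1% in the knockout. These did not overlap and were lower in the knockout of both sets (exact permutation p = 0.333, the smallest possible). With at least 2 UMIs the sets again went opposite ways (1.20 and -5.81 percentage points).

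The make-up of the remaining epithelium moved with the share of cycling cells under the main rule. Enterocytes were counted as other epithelial cells with at least 5% of UMIs in Fabp1, Fabp2, Apoa1, Apoa4, Rbp2 and Sis. They numbered 124 of 864 and 129 of 1709 epithelial cells in wild type and 60 of 854 and 434 of 2170 in the knockout. The sample with the lowest share of cycling cells thus had the most enterocytes. With enterocytes left out of the denominator, an alternative chosen after seeing the data, the shares were 31.8% and 31.5% in wild type and 31% and 30.6% in the knockout. Those groups did not overlap and differed by 0.853 percentage points, lower in the knockout (exact p = 0.333, the smallest possible). With the keratin threshold of 0.05% the knockout mean lay 0.659 points above wild type, since the shares became 31.1% and 22.3% against 34.2% and 20.5%.

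**Figure D2:**
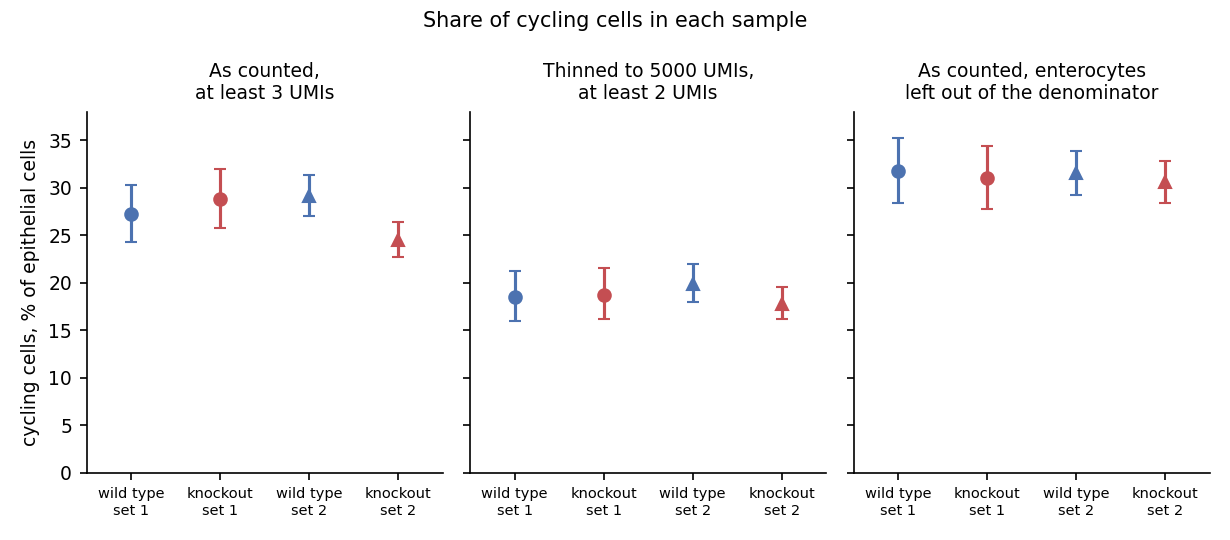
Percent of epithelial cells that were cycling in each of the 4 samples, as counted, after thinning to 5000 UMIs, and with enterocytes left out of the denominator. The thinned panel asks for at least 2 UMIs of Mki67 and Top2a, the others for at least 3. It leaves out cells under 5000 UMIs, which were 114 and 106 epithelial cells of wild-type and knockout set 2. Bars are exact 95% binomial intervals for counting error. As counted, the knockout of set 1 (28.8%) lies above its wild type (27.2%) and that of set 2 (24.5%) below its wild type (29.1%).

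Gene by gene, the genotypes were compared on the summed UMIs of the cycling cells of each sample, with set as a block (edgeR quasi-likelihood test, Benjamini-Hochberg adjustment). Of 11465 genes tested, 1 (0.00872%) passed an adjusted p of 0.05, and 495 (4.32%) had an unadjusted p under 0.05. That fit has 1 residual degree of freedom and borrows its variance across genes, and its count of calls was not stable. No gene was called without the set block, with 92 at an unadjusted p under 0.05, and none with median-of-ratios scaling. DESeq2 called 11, and the keratin threshold of 0.05% gave 35. Leaving out 1 sample, without the block, gave 67 calls without wild-type set 1, 3 without knockout set 1, 34 without wild-type set 2 and 4 without knockout set 2.

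The gene that rose in the knockout was Wdfy1, whose product binds endosomal membranes and has been described as an adaptor of Toll-like receptor signaling. Wdfy1 stood at 7.43 and 7.26 CPM in wild type and 38 and 62.5 CPM in the knockout. Every knockout value lay above every wild-type value, in set 1 and in set 2, and the log2 fold change was 2.86 (SE 0.19, adjusted p = 0.0489 by edgeR). The difference was not confined to dividing cells, since other epithelial cells held 13.1 and 13.9 CPM in wild type and 45.1 and 69.5 CPM in the knockout (log2 2.06, adjusted p = 0.111), and the knockout difference of the 2 classes was not called different (adjusted p = 0.175). The call ended without the set block (log2 2.78, adjusted p = 1.0), with median-of-ratios scaling (2.87, adjusted p = 0.0577) and without both the block and knockout set 2 (2.41, adjusted p = 0.0666), while 12 of 15 alternatives kept it. Wdfy1 lies at chr1:79702262-79776143 (GRCm38), on the same chromosome as Mir375 and several megabases from it. Among the other tested genes near Mir375, Ihh, a hedgehog ligand of differentiated epithelium, stood at 17.3 and 19.1 CPM in wild type and 23.5 and 21.2 CPM in the knockout (log2 0.26, adjusted p = 1.0).

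**Figure D3:**
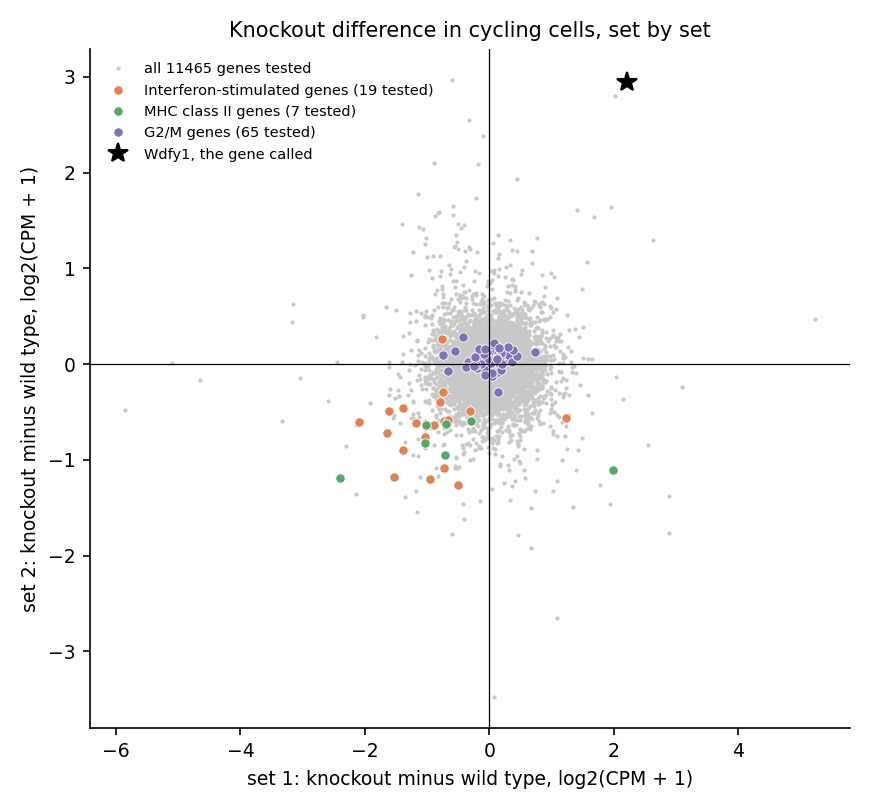
Knockout minus wild type in log2(CPM + 1) for each of the 11465 genes tested in cycling cells, set 1 on the x axis and set 2 on the y axis, with Wdfy1 (star) and 3 gene lists in color. Wdfy1 lies far from 0 in both sets, most interferon-stimulated and MHC class II genes lie in the lower left, and the G2/M genes lie close to 0.

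MHC class II genes lay lower in knockout cycling cells. Crypt epithelial cells carry MHC class II, which presents peptides to helper T cells, together with its chaperone, the invariant chain Cd74. Of 7 genes, all tested, 6 were lower in both sets, where 26.4% of all genes tested were, and those 6 also did not overlap between the genotypes, against 8.83% of all genes. The median log2 fold change was -0.82, beside -0.01 over all genes tested, and 5 had an unadjusted p under 0.05. This list, like the others, was chosen with earlier results of these data known, so its counts describe it and are not independent support. No member passed the adjusted test.

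Cd74 stood at 1136 and 1053 CPM in wild type and 691 and 544 CPM in the knockout. Both knockout values lay under both wild-type values (log2 -0.84, SE 0.09, edgeR adjusted p = 0.136). H2-Aa, the alpha chain of the I-A molecule, stood at 424 and 218 CPM in wild type and 79.8 and 95 CPM in the knockout (log2 -1.77, SE 0.26, adjusted p = 0.269). H2-Ab1, its beta chain, stood at 303 and 206 CPM in wild type and 148 and 116 CPM in the knockout (log2 -0.93, SE 0.09, adjusted p = 0.136). These 3 genes were each called lower in 6 of 15 alternatives. H2-DMa and H2-DMb1, subunits of the enzyme-like molecule that loads peptides, had log2 fold changes of -0.67 and -0.82 (adjusted p = 0.254 and 0.386). Ciita, the master activator of these genes, was low throughout, at 3.92 and 4.2 CPM in wild type and 3.02 and 2.45 CPM in the knockout.

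H2-Eb1 was the member that did not follow. It stood at 24.4 and 20.3 CPM in wild type and 99.9 and 8.89 CPM in the knockout, so that knockout set 1 was the highest of the 4 samples and knockout set 2 the lowest. In other epithelial cells it had the same shape, at 44.9 and 30.8 CPM in wild type and 187 and 23.8 CPM in the knockout. H2-Eb1, H2-Aa and H2-Ab1 are neighbors on chromosome 17, at chr17:34305867-34316674, chr17:34282744-34287823 and chr17:34257689-34269419 (GRCm38).

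Interferon-stimulated genes lay lower in the knockout as well. These genes are switched on by interferons and include the immunoproteasome and antiviral enzymes. Of 22 genes chosen, 19 were tested, 17 of those were lower in both sets and 15 did not overlap (26.4% and 8.83% of all genes). The 3 not tested, Gbp2, Rsad2 and Ifit3, were each under 1 CPM in all 4 samples. The median log2 fold change was -1.03, and 17 of the 19 had an unadjusted p under 0.05, where 4.32% of all genes did, but none passed the adjusted test. Here too the list was chosen with earlier results of these data known, so the shares over all genes are no independent test of it. With the keratin threshold of 0.05%, 17 of the 19 were lower in both sets and 13 did not overlap, and for MHC class II both counts were again 6. With a threshold of 0.5% the counts were 15 and 13 for the interferon-stimulated and 5 and 4 for the MHC class II genes, and after thinning each cell to 5000 UMIs the interferon-stimulated genes without overlap numbered 11.

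Among the antigen-processing members, Psmb8, an immunoproteasome subunit, stood at 428 and 573 CPM in wild type and 99.5 and 375 CPM in the knockout (log2 -1.33, SE 0.32, adjusted p = 0.723). Its set 1 difference of -2.09 was larger than that of set 2, -0.61. Psmb9, a second subunit, showed the same order at 275 and 371 CPM in wild type and 89.1 and 264 CPM in the knockout, as did Tap1, the peptide transporter, at 52.6 and 65.2 CPM in wild type and 16.1 and 39.2 CPM in the knockout. B2m, the light chain of MHC class I, was much more abundant at 979 and 422 CPM in wild type and 789 and 299.7 CPM in the knockout, with both knockout values below the wild type of their own set but overlapping across sets. Psmb8, Psmb9 and Tap1 lie beside the MHC class II genes on chromosome 17, at chr17:34197721-34201454, chr17:34181987-34187764 and chr17:34187553-34197225.

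Members on other chromosomes also lay lower. Isg15, a ubiquitin-like modifier, stood at 10.3 and 14.5 CPM in wild type and 4.83 and 5.76 CPM in the knockout (log2 -1.26, SE 0.19, adjusted p = 0.269). Bst2, a membrane protein that tethers virions, stood at 44.4 and 40.6 CPM in wild type and 27.7 and 26.7 CPM in the knockout (log2 -0.63, adjusted p = 0.395). In both genes the 2 knockout values were under the 2 wild-type values. The exceptions were Iigp1, at 0.619 and 1.74 CPM in wild type and 2.81 and 0.859 CPM in the knockout, and Ifit2, at 1.03 and 0.801 CPM in wild type and 0.201 and 1.17 CPM in the knockout, both near the counting limit.

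Neither list was shown to differ between dividing and other epithelial cells. In other epithelial cells the medians were -0.62 for MHC class II and -1.09 for interferon-stimulated genes, and no member of either list was called in the test of the difference between classes. As shares of UMIs, the MHC class II list took 0.20% and 0.161% in wild-type and 0.108% and 0.0837% in knockout cycling cells. The interferon list took 0.209% and 0.187% in wild type and 0.12% and 0.13% in the knockout.

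T lymphocyte transcripts were measured beside them, since T cells are a main source of interferon gamma in the mucosa. T lymphocyte genes, with 11 of 13 in the matrices, took 0.0134% and 0.00983% of the UMIs of wild-type and 0.0161% and 0.00457% of knockout cycling cells, higher in the knockout of set 1 and lower in that of set 2. Gene by gene, all 11 had a log2 fold change below 0 (median -0.57), 6 were lower in both sets, where 26.4% of all genes were, and none was higher in both. With the keratin threshold of 0.5%, 2 of the 11 were lower and 5 higher in both sets. Cells in the T lymphocyte gate numbered 1376 of 3363 kept cells in wild-type set 2 and 792 of 3355 in knockout set 2. In set 1 they numbered 22 of 1197 in wild type and 48 of 1241 in the knockout. None of the T lymphocyte genes was at 0, and Cd3e ran from 0.613 to 1.81 CPM. Myeloid genes, whose cells carry MHC class II at high level, took 0.00188%, 0.00409%, 0.00251% and 0.00185%. The part of T lymphocytes and myeloid cells in the lower MHC class II and interferon-stimulated genes was not tested.

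**Figure D4:**
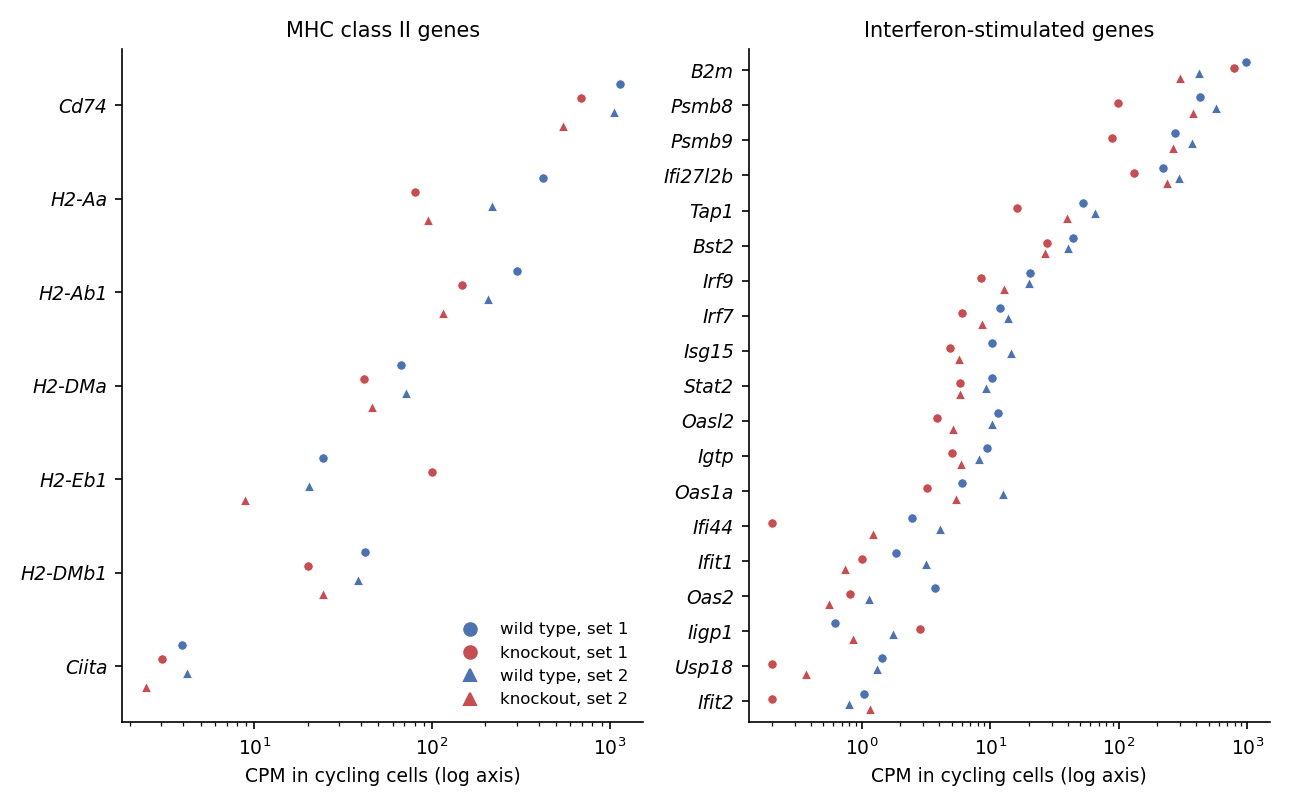
CPM in cycling cells (log axis) of the 7 MHC class II genes and the 19 tested interferon-stimulated genes, 1 point per sample (circles set 1, triangles set 2; blue wild type, red knockout). Both red points lie left of both blue points for Cd74, H2-Aa, H2-Ab1, Psmb9 and Isg15, while H2-Eb1 has 1 red point at each end.

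The cell cycle lists showed little difference between the genotypes. S-phase genes had a median log2 fold change of 0.08, with 17 of 58 higher in both sets and none lower in both (24.1% and 26.4% of all genes). Set 1 had a median of -0.11 and set 2 one of 0.20, so the sets disagreed. Tk1, thymidine kinase, stood at 108 and 81.9 CPM in wild type and 117 and 98.5 CPM in the knockout (log2 0.20, adjusted p = 1.0). Tyms, the enzyme of thymidylate synthesis, stood at 112 and 137 CPM in wild type and 107 and 159 CPM in the knockout (log2 0.08, adjusted p = 1.0). For G2/M genes the median was 0.06, with 32 of 65 higher in both sets and 7 lower in both, and 11 without overlap above wild type (8.4% of all genes) and 2 below. Ube2c stood at 376 and 456 CPM in wild type and 419 and 487 CPM in the knockout (log2 0.12, SE 0.09, adjusted p = 1.0), and Hmgb2, a chromatin protein of dividing cells, had a log2 fold change of 0.08 (adjusted p = 1.0).

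Regulators of cell cycle entry went both ways. Ccnd1, cyclin D1, which drives entry from G1, stood at 146 and 278 CPM in wild type and 125 and 186 CPM in the knockout, lower in the knockout of both sets (log2 -0.42, SE 0.11, adjusted p = 0.771). Ccnd2, cyclin D2, lay higher in both, at 442 and 454 CPM in wild type and 540.5 and 497 CPM in the knockout (log2 0.21, adjusted p = 1.0). Cdk4, the kinase both serve, stood at 234 and 185 CPM in wild type and 242 and 209 CPM in the knockout (log2 0.12). The antiproliferative Btg2 stood at 50.6 and 95.7 CPM in wild type and 72 and 124 CPM in the knockout (log2 0.43, adjusted p = 0.649). Of the 30 genes tested in that list none passed.

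Stem cell and Wnt target genes had a median of 0.17, with 11 of 26 tested higher in both sets and 2 lower in both (24.1% and 26.4% of all genes), and 7 higher without overlap (8.4% of all genes). With the keratin threshold of 0.5%, 5 were higher and 7 lower in both sets. Slc12a2, an ion transporter enriched in the crypt base, stood at 126 and 212 CPM in wild type and 126 and 247 CPM in the knockout (log2 0.12, adjusted p = 1.0). Ascl2, a stem cell transcription factor, stood at 11.4 and 10.5 CPM in wild type and 14.1 and 16 CPM in the knockout (log2 0.50, adjusted p = 1.0). Lgr5 itself had a log2 fold change of 0.17 (SE 0.21, adjusted p = 1.0). Notch and secretory lineage genes had a median of 0.14, with 11 of 23 higher in both sets and 2 lower (24.1% and 26.4% of all genes), and 7 higher without overlap (8.4% of all genes). Hes1, the Notch target that holds cells in the absorptive path, stood at 68.9 and 51.2 CPM in wild type and 87.5 and 58.7 CPM in the knockout (log2 0.26, adjusted p = 1.0), and Sox4, a factor of secretory progenitors, at 63.4 and 84.9 CPM in wild type and 65.1 and 104 CPM in the knockout (log2 0.18, adjusted p = 1.0). No tested gene of either list passed.

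Immediate early and heat shock genes lay toward the knockout side in set 1. Immediate early genes respond within minutes to growth factors and to tissue handling. Of 20 tested, 11 were higher in both sets and 8 did not overlap (24.1% and 8.4% of all genes). The median was 0.24, with 0.45 in set 1 and 0.03 in set 2. Fos stood at 73.5 and 102 CPM in wild type and 139 and 129 CPM in the knockout (log2 0.60, SE 0.15, adjusted p = 0.723), and Fosb at 14.9 and 20.8 CPM in wild type and 24.7 and 32.4 CPM in the knockout (log2 0.67, adjusted p = 0.395). The chaperone Hspa1a went against them, at 51.6 and 3.87 CPM in wild type and 34.4 and 3.56 CPM in the knockout, and separated the sets most.

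No reported target of miR-375 was called. Of 13 tested, 4 were higher in both sets and 6 lower in both (24.1% and 26.4% of all genes), none was without overlap, the median was -0.04 and none had an unadjusted p under 0.05. After thinning each cell to 5000 UMIs, 1 was higher and 6 lower in both sets, and 5 were lower without overlap, where 1305 of the 11465 genes tested were. Yap1, the growth regulator of the Hippo pathway that is often named as a target, stood at 39.6 and 24.9 CPM in wild type and 39.6 and 23.5 CPM in the knockout (log2 -0.05, SE 0.11, adjusted p = 1.0). Mtpn, myotrophin, a target known from islets, stood at 79.5 and 115 CPM in wild type and 91.7 and 109 CPM in the knockout (log2 0.05, adjusted p = 1.0). Klf4, a brake on proliferation, stood at 47.3 and 96.2 CPM in wild type and 76 and 97.7 CPM in the knockout (log2 0.30, adjusted p = 1.0). The measurement is of RNA level only.

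Mature-cell products inside cycling cells varied between the sets. Enterocyte genes had a median of -0.46 in set 1 and 0.32 in set 2, matching the order of enterocyte numbers, and Fabp1, a fatty acid binding protein, stood at 704 and 248 CPM in wild type and 490.4 and 600.3 CPM in the knockout in cycling against 12350.2 and 5899 and 4120.1 and 15027 CPM in other cells. Goblet genes had a median of 0.03, and Zg16, a goblet lectin, stood at 1692 and 4471 CPM in wild type and 4414 and 5775 CPM in the knockout (log2 0.87, adjusted p = 0.735). Paneth genes had a median of 0.02. The 5 antimicrobial lectin genes of the Reg family had a median of -0.41 with 4 lower in both sets. Reg3b stood at 169 and 2345 CPM in wild type and 141 and 1180.1 CPM in the knockout (log2 -0.64, adjusted p = 0.771).

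In the remaining lists no gene passed. Ileal and proximal region genes had a median of 0.28, with 4 of 16 tested higher in both sets and 1 lower. Genes of ribosome and nucleotide synthesis had a median of 0.02, p53 target and apoptosis genes 0.01, glycolysis and mitochondrial genes -0.04, and tuft genes 0.02. B lymphocyte, stromal and myeloid lists had 4, 3 and 5 genes above the count filter, too few to describe.

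Some genes outside the lists had low p-values without passing, and those named here were chosen after their values were seen, from the 25 lowest p-values. Clec2h, a C-type lectin of the gut epithelium, stood at 74.3 and 142 CPM in wild type and 40.6 and 66.3 CPM in the knockout (log2 -1.0, SE 0.10, adjusted p = 0.136). Gsdmc2, a gasdermin, stood at 28.1 and 33 CPM in wild type and 12.5 and 14 CPM in the knockout (log2 -1.22, adjusted p = 0.136), and its relative Gsdmc4 at 38.4 and 75.8 CPM in wild type and 22.7 and 45.3 CPM in the knockout (log2 -0.75, adjusted p = 0.233), and reads of such near-identical copies can be split between them. Ly6a, a membrane protein known as Sca-1, stood at 3.51 and 8.91 CPM in wild type and 1.01 and 2.39 CPM in the knockout (log2 -1.88, adjusted p = 0.233). All 4 were lower in both knockout samples than in the wild type of their own set. On the other side, Rnase1, a secreted ribonuclease, stood at 21.7 and 25.2 CPM in wild type and 39.6 and 49 CPM in the knockout (log2 0.92, adjusted p = 0.172), and Id2, an inhibitor of helix-loop-helix factors, at 27.4 and 39.7 CPM in wild type and 51.1 and 65.8 CPM in the knockout (log2 0.79, adjusted p = 0.233).

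Enteroendocrine genes in cycling cells varied with the set and with the choice of cells. Of 20 tested, 7 were lower and 3 higher in both sets (26.4% and 24.1% of all genes), 6 had an unadjusted p under 0.05, and the median was -0.24, with -0.39 in set 1 and 0.03 in set 2. With the highest doublet scores removed, 13 were lower and 2 higher in both sets (3071 and 2754 of all 11465 genes). The set medians were then -0.40 and -0.53. With the keratin threshold of 0.5%, 2 were lower and 5 higher in both sets (2618 and 2865 of all genes), and the set medians were 1.15 and -0.07. Chgb, an endocrine granule protein, stood at 58.4 and 106 CPM in wild type and 32.6 and 46.8 CPM in the knockout (log2 -1.05, adjusted p = 0.136). No member passed the adjusted test.

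Chgb was also among the genes whose knockout difference was not the same in dividing and other cells. A test of whether the knockout difference is the same in cycling and other epithelial cells called 22 of 12219 genes (0.18%), of which 21 (0.172%) had a lower knockout difference in cycling cells and 1 (0.00818%) a higher one. Of the 22, 6 belong to the enteroendocrine list and 2 to the tuft list. In 15 of them the other epithelial cells of the knockout lay above wild type in both sets, and in 12 the cycling cells of the knockout lay below it in both. The test selects genes with such orders, so these counts only describe the called genes and add no support. The other epithelial cells alone gave no call among 11754 genes tested, so no single difference in them passed. The test of the classes also has 1 residual degree of freedom and borrows its variance across genes (median prior degrees of freedom 30.8). Its small adjusted p-values rest on that borrowed variance and on 2 samples per genotype, and do not measure replication over mice.

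Chgb in other epithelial cells stood at 76.6 and 185 CPM in wild type and 158 and 278 CPM in the knockout, opposite to its order in cycling cells, and the class difference was -1.80 (SE 0.15, adjusted p = 2.42e-09 by edgeR). Chga, its partner granin, was at 14.2, 31.4, 9.05 and 8.46 CPM in cycling and 28.9, 61.5, 70.9 and 52 CPM in other cells (class difference -1.74, adjusted p = 1.85e-07). Tac1, the precursor of substance P, was at 3.3, 15.4, 5.63 and 11 CPM in cycling and 8.6, 12.5, 58.2 and 37.8 CPM in other cells (class difference -2.07, adjusted p = 1.85e-07). In each of these the ratio between the classes was smaller in wild type than in the knockout of the same set. Tph1, which makes serotonin in enterochromaffin cells, showed the difference at low level, with 1.03, 2.64, 0.402 and 0.859 CPM in cycling and 1.54, 2.63, 4.69 and 7.87 CPM in other cells (-3.16, adjusted p = 4.88e-04).

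Genes outside the endocrine list had the same shape. Reg4, a lectin of enteroendocrine and deep crypt secretory cells, was at 83, 54.8, 71.6 and 44 CPM in cycling and 101, 39.6, 340.1 and 115 CPM in other cells, with the highest other-cell values in the knockout of each set (class difference -1.89, SE 0.15, adjusted p = 5.35e-10). Rgs13, a tuft cell regulator of G protein signaling, was at 25.6, 14.2, 24.9 and 7.97 CPM in cycling and 99.2, 24.9, 169 and 42.1 CPM in other cells (-1.20, adjusted p = 3.61e-04). Sox4 was at 28.9, 26.8, 71.5 and 43.8 CPM in other cells (-0.75, adjusted p = 0.0325). Cdkn1c, a cyclin-dependent kinase inhibitor, stood at 3.92, 5.23, 3.42 and 2.39 CPM in cycling and 8.08, 13.5, 14.7 and 18 CPM in other cells (-1.41, adjusted p = 0.0266). The single gene with a higher knockout difference in cycling cells was Nts, neurotensin, where knockout set 2 held 15.5 CPM and the other 3 samples at most 2.88.

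These calls depended on the fit and on the cells compared. Without the term that lets classes differ by set, 5 genes were called, 4 of them among the 22, and median-of-ratios scaling gave 34, which held all 22. With the other epithelial cells limited to those with an Lgr5 UMI, 16 genes were called, 7 with a higher and 9 with a lower knockout difference in cycling cells, and 6 were among the 22. A sample could be left out only together with the class by set term. Leaving out wild-type set 1, knockout set 1, wild-type set 2 and knockout set 2 in that way gave 30, 33, 16 and 68 calls, which held 14, 17, 6 and 10 of the 22. Without knockout set 2 the direction was mixed, at 42 higher and 26 lower. The effect of the sample and that of the dropped term cannot be told apart in these counts. The other epithelial cells hold the mature endocrine and tuft cells, so more such cells in a sample and more RNA per cell cannot be told apart here.

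**Figure D5:**
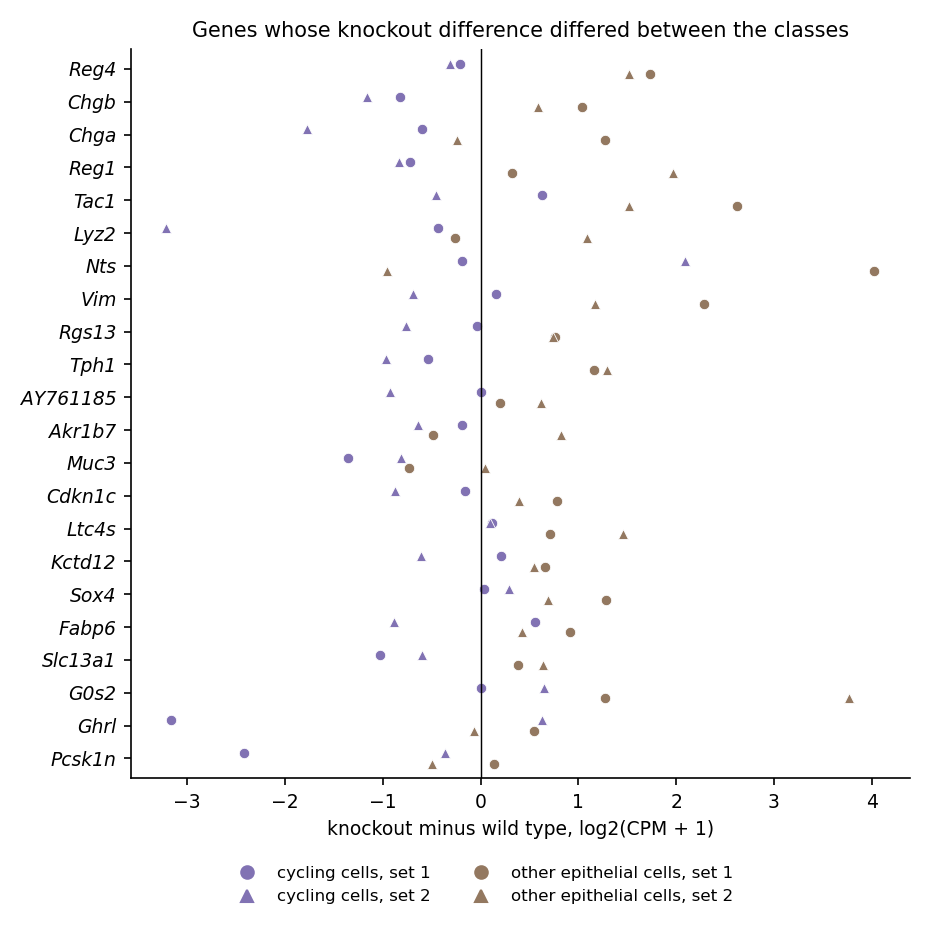
Knockout minus wild type in log2(CPM + 1) in cycling cells (purple) and other epithelial cells (brown) for the 22 called genes, circles for set 1 and triangles for set 2. Brown points lie to the right of 0 in both sets for 15 of the genes, and purple points to the left in both for 12, orders that the choice of these genes favors.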

How the data were processed

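The authors deposited UMI counts per gene and cell for 4 samples. Alignment to mm10 and Cell Ranger are named per the submitters' processing notes, without versions or settings. Set 2 matrices name software 3.0.1 per the file headers. From these counts, cells were filtered and chosen by the rule in the opening, and UMIs were summed per sample and class. Counts were tested with edgeR 4.0.16 (filterByExpr, TMM, quasi-likelihood test, Benjamini-Hochberg, threshold 0.05) with set as a block. DESeq2 1.42.0 was an alternative. The test of classes used 8 sums with terms for sample, class, class by set and class by genotype. Mki67, Top2a and the other genes of the rule were left out of every fit. The scripts were tested on simulated data. Fold changes within a set are on the log2(CPM + 1) scale.

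Scrublet's own threshold marked 2, 12, 4 and 26 cells (wild-type sets 1 and 2, knockout sets 1 and 2), too few to rely on, so cells were kept, and an alternative removed the highest scores at 0.8% per 1000 barcodes. T lymphocytes were cells with at least 2 UMIs of Cd3d, Cd3e and Cd3g and a keratin share under 0.2%. In set 1 these numbered 22 and 48 and were led by defensins, so only set 2 served as background. Set numbers come from the labels. Deviations of the set 1 samples from their genotype means had a correlation of 0.675 over 11465 genes. With 2 samples per genotype the set 2 value is the same by construction, so this is a single value.

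Between genotypes the text names the called genes and up to 4 uncalled members of each list with the highest CPM. Other genes, and further list members, were named after their values were seen. Between classes it names the 15 highest and 8 lowest ratios among genes of at least 50 CPM. The members and all 25 lists were chosen with earlier results of these data known. Some list members, of which 1 was also in the planned enterocyte definition, are not reported here and were left out of both. Gene positions are from GENCODE vM21 (GRCm38).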

Additional observations from a re-analysis of the deposited data

Results flagged for a closer look

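The knockout difference (log2) differed between cycling and other epithelial cells for 22 genes by the class by genotype term of the edgeR fit, adjusted p under 0.05, over 2 wild-type and 2 knockout samples. Enteroendocrine genes among them were Chgb (-1.80), Chga (-1.74), Tac1 (-2.07), Tph1 (-3.16), Ghrl (-2.09) and Nts (3.14). Tuft genes were Rgs13 (-1.20) and Ltc4s (-1.0). Lectins were Reg4 (-1.89) and Reg1 (-2.22). Genes of other kinds were Vim (-2.23), Akr1b7 (-1.57), Muc3 (-0.75), Cdkn1c (-1.41), Kctd12 (-0.86), Sox4 (-0.75), Fabp6 (-1.03), Slc13a1 (-1.69) and AY761185 (-1.72).

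Lyz2 (-6.90), G0s2 (-4.66) and Pcsk1n (-6.84) were below the count filter in cycling cells and rest on few UMIs there. Lyz2 stood at 0.619, 12.8, 0.201 and 0.491 CPM in cycling cells in the order wild-type sets 1 and 2 and knockout sets 1 and 2, so 1 sample carries it. Ghrl, ghrelin, stood at 49.3, 1.04, 4.62 and 2.15 CPM, and wild-type set 1 carries it. AY761185, a defensin-like gene, was at 0 in cycling cells of both set 1 samples, and its difference comes from set 2.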

How the results depend on the processing

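The count of genes called between knockout and wild type in cycling cells (1) was 0 with no replicate block (set), 0 with median-of-ratios scaling, 58 with no count filter, 34 and 11 with at least 2 and 5 UMIs of Mki67 and Top2a, 26 and 35 with keratin thresholds of 0.5% and 0.05%, 11 by DESeq2 and 3 to 67 when each sample was left out in turn together with the block (4 without knockout set 2). The cause was not tested. The count of class by genotype calls (22) was 5 without the class by set term, 34 with median-of-ratios scaling and 16 to 68 when each sample was left out together with that term. Wdfy1 was called in 12 of 15 alternatives. The log2 values of H2-Eb1 and Reg1 changed sign when a sample was left out without the block, to -1.35 without knockout set 1 and to 0.20 without wild-type set 2. The share of cycling cells and the S-phase and G2/M shares moved by less than the pooled SD between samples under every alternative run, yet without knockout set 2 their knockout difference had the other sign (0.636, -0.0175 and -0.00041 percentage points). Depth limits genes of a few CPM.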

Other observations

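Some transcripts stood out in single samples of cycling cells, and they were chosen after their values were seen. Mast cell proteases Mcpt1 and Mcpt2 stood at 16.2 and 19.7 CPM in knockout set 2 and at most 0.206 CPM in the other 3 samples. In other epithelial cells of knockout set 2 they stood at 0.176 and 0.044 CPM. Hbb-bs, a hemoglobin chain of red blood cells, stood at 25 and 0.0943 CPM in wild-type sets 1 and 2 and 21.1 and 0.0613 CPM in the knockout, so it was far higher in both samples of set 1. Gip, a hormone of enteroendocrine K cells, stood at 1386 and 134 CPM in wild type and 153 and 182 CPM in the knockout, and Sst, somatostatin, at 43.8 and 0.0471 CPM in wild type and 0.804 and 0.123 CPM in the knockout. Both were highest in wild-type set 1. Jchain, the joining chain of antibodies, stood at 9.91 and 0.0471 CPM in wild type and 1.01 and 0.0613 CPM in the knockout.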
